A study of Mus musculus with 12 samples.

Results

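The genes described here encode the proteins of the mitochondrial ribosome. They were taken by symbol, Mrpl for the large subunit and Mrps for the small subunit, each followed by a number and at most 1 letter, with at least 10 reads in 3 or more libraries. Of 76 symbols that fit this pattern, 75 were kept, 46 large and 29 small, among 44345 genes in the count files and 16819 that were tested. Mrpl53, a large-subunit gene, was dropped with 2 reads over the 6 libraries; it overlaps Ccdc142 in the annotation (chr6:83109108-83109932, GRCm38.p6). The tissue was the lumbar dorsal root ganglia, L4 to L6, of C57BL/6 mice of 6 to 8 weeks, in which RNA and accessible chromatin were profiled. Sensory neurons have their cell bodies there, among satellite glia, Schwann cells, vessels and immune cells. All mice, controls included, had a dorsal column axotomy, which cuts the central branches of these neurons in the spinal cord, 24 h before the tissue was taken, and no uninjured ganglia were analysed here. The treated group was given 12 mg/kg of MS275, also called entinostat, which blocks class I histone deacetylases, into the peritoneum, and the control group its vehicle of Tween80, PEG300 and DMSO. Both were given at injury and again 2 h before the end. Each treatment had 3 RNA libraries, each a pool of 2 mice with 34992533 to 60370523 reads assigned to genes, and 3 ATAC libraries of 1 mouse each, deposited as 1 pooled peak list per treatment.

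Mitochondrial ribosomes translate the few proteins that mitochondrial DNA still encodes, all of them parts of the respiratory chain and ATP synthase. Their RNAs come from mitochondrial DNA, but every one of their proteins is encoded in the nucleus, made in the cytoplasm and imported. The large subunit forms the peptide bonds and the small subunit holds and decodes the mRNA. Some of the proteins have counterparts in bacterial ribosomes and others were added in the mitochondrial lineage. Nuclear factors that bind at the starts of many mitochondrial genes include NRF1, GABP (an ETS-family factor, also called NRF2) and YY1, with coactivators of the PGC-1 family. In neurons, axons depend on mitochondrial ATP.

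The stretches before the start sites of 5 of these genes show the letters discussed with the open chromatin. They were chosen after the values were seen. Mrpl32 and Mrps33 have the highest fold change in each subunit, and the head-to-head neighbour of Mrps18b rose with MS275. Mrps12 starts close to another mitochondrial translation gene, and Mrpl46 close to a gene of the other subunit. Each runs 5′ to 3′ on the gene's strand and ends at the base before the RefSeq start (GRCm38.p6), with at most 250 bases, shortened where a head-to-head neighbour starts. Capitals mark matches, on either strand, to the core of the NRF1 site (GCATGCG, reverse CGCATGC) or to a GC box (GGGCGG, reverse CCGCCC), which may overlap. The intervals are chr13:14613038-14613241 on the minus strand for Mrpl32, chr6:39810937-39811186 on the minus strand for Mrps33 and chr17:35916441-35916690 on the minus strand for Mrps18b. Those of Mrps12 and Mrpl46 are chr7:28741822-28741967 and chr7:78783090-78783130, both on the minus strand. The Mrpl32 stretch lies between its start and that of Psma2, a proteasome subunit gene, and holds 5 matches to the NRF1 core, counted on both strands, at 3 places.
Mrpl32: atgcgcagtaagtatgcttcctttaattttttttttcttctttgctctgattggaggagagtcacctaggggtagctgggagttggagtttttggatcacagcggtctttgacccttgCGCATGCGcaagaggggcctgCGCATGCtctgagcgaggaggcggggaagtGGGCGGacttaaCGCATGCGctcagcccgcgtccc
Mrps33: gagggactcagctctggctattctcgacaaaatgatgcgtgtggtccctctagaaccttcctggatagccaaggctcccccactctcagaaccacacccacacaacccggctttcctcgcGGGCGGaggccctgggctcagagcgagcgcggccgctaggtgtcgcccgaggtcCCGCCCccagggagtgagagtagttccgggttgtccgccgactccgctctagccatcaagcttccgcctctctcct
Mrps18b: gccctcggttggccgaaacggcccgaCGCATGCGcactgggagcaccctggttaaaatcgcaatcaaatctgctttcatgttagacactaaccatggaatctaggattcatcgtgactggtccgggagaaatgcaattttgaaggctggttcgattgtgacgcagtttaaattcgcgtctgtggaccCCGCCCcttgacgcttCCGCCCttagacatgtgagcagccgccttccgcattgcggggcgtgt
Mrps12: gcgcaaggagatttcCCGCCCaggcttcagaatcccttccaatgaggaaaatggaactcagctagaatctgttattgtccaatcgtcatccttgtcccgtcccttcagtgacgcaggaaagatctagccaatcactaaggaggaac
Mrpl46: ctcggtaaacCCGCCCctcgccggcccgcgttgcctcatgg

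The RNA comparison asked how transcript levels in injured ganglia differed between MS275 and vehicle. Across the mitochondrial ribosome, levels under MS275 stayed close to those under vehicle. Levels are in CPM, read counts scaled to the normalised library size. By edgeR's quasi-likelihood test with Benjamini-Hochberg adjustment over all genes, 0 of 75 members rose and 0 fell at an adjusted p under 0.05. Of all genes tested 11.0% passed, 5.10% higher and 5.89% lower. Of the 6953 genes within the members' range of mean level 15.0% passed, 348 higher and 693 lower. At an unadjusted p under 0.05, 8 members were higher and 0 lower, against 13.6% and 14.9% of all genes. DESeq2 called 0 members, and limma voom called 1, Mrps33, as higher. The smallest adjusted p, for Mrps33, was 0.0516 by edgeR, just short of the threshold.

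The log2 fold changes of the members ran from -0.17 (Mrps28) to 0.24 (Mrpl32), with a median of 0.05, against 0.00 for all genes tested and -0.03 for genes in the same range of level. They were above 0 for 57 members and below 0 for 18, a positive share of 76.0% against 50.5% of all genes and 41.9% of genes in that range. Their standard errors ran from 0.04 to 0.13 on the log2 scale, and the least sequenced member, Mrpl23, still had 203 reads in its lowest library. The 95% interval of the fold change lay within 1.5-fold either way for 75 of 75 members, against 70.8% of all genes and 92.3% of genes in that range. It lay within 1.2-fold for 55 members (73.3%), against 36.7% and 43.0%. Intervals this narrow place the change of each member below 1.5-fold in these ganglia, in either direction, at that level of confidence. Because whole ganglia were sequenced, fewer cells of a type and less RNA per cell cannot be told apart.

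**Figure D1:**
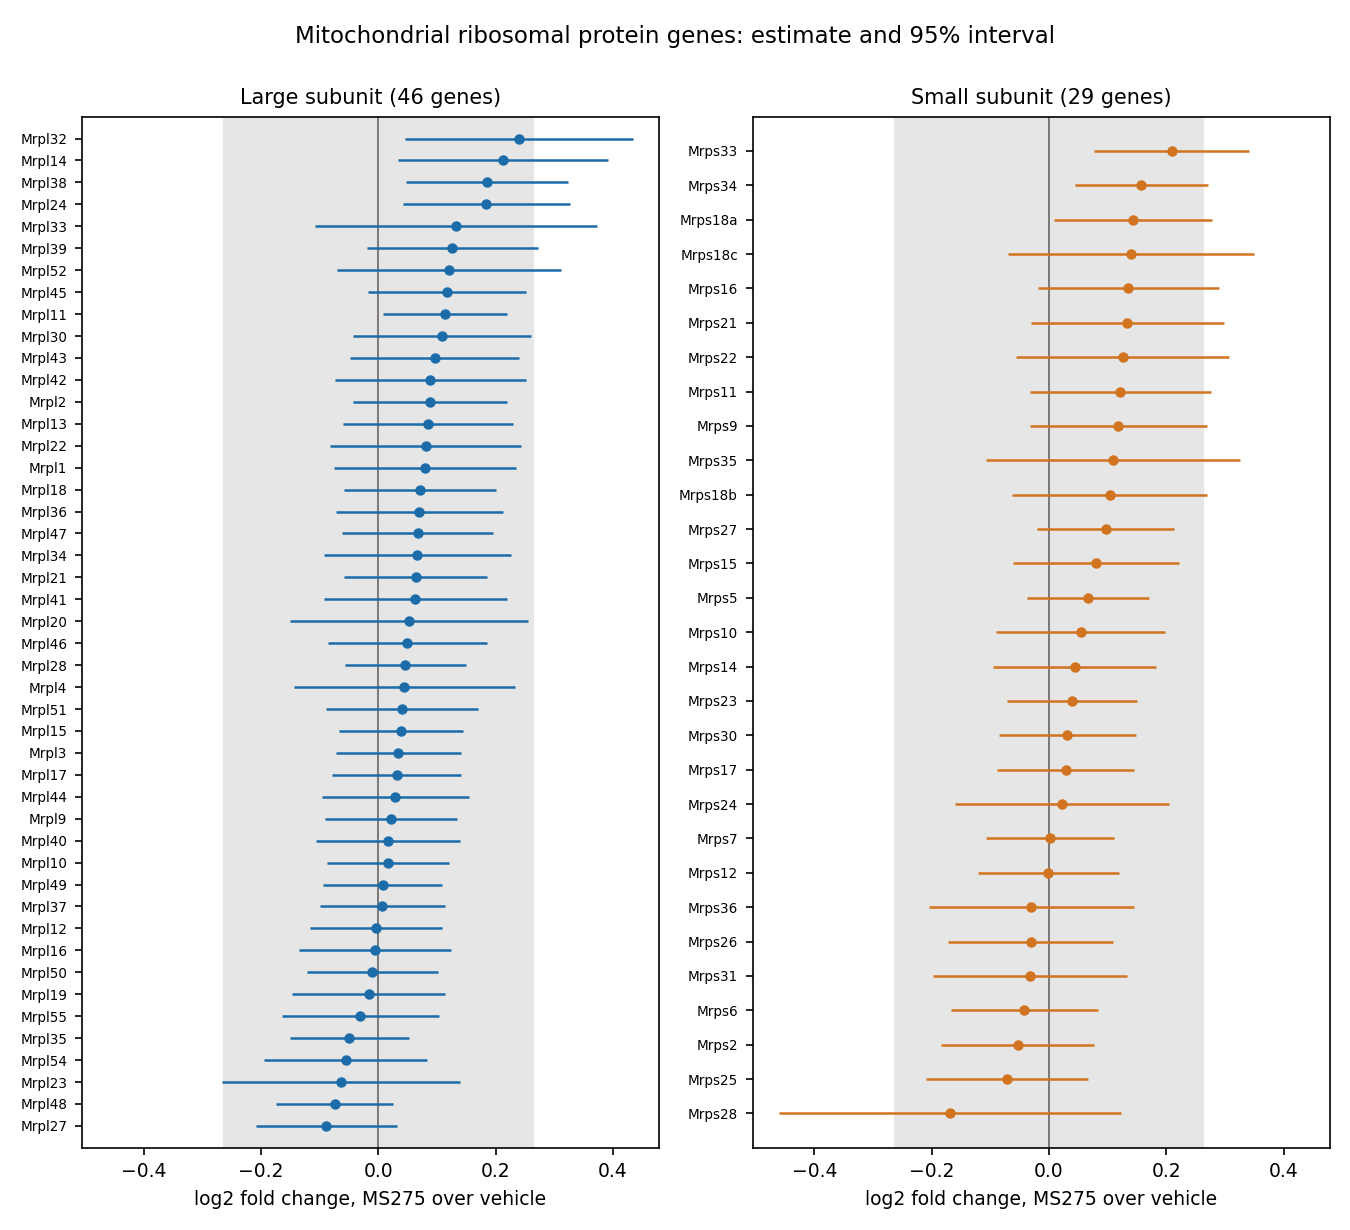
Log2 fold change of each of the 75 members, MS275 over vehicle (horizontal axis), with its 95% interval from edgeR (3 libraries per group); the grey band marks 1.2-fold either way. Estimates run from -0.17 for Mrps28 to 0.24 for Mrpl32, and 36 of 46 large-subunit and 21 of 29 small-subunit estimates lie above 0.

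**Figure D2:**
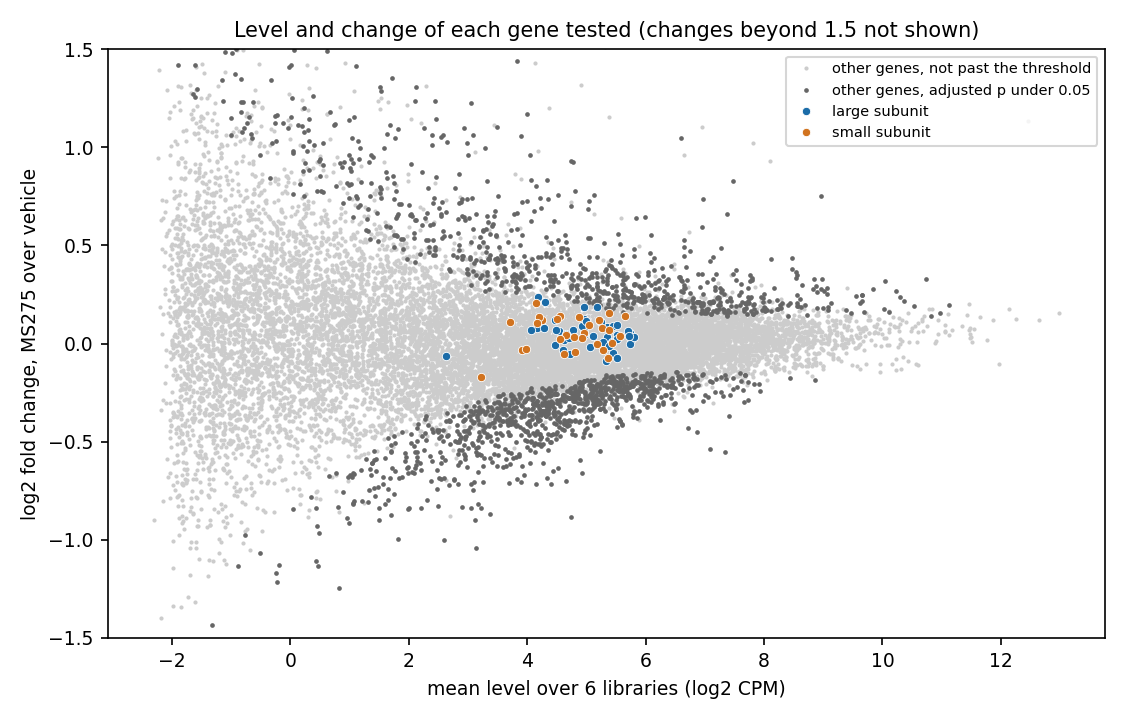
Log2 fold change, MS275 over vehicle, against mean log2 CPM (read counts scaled to library size) over 6 libraries for every gene tested, with genes past the threshold in dark grey. The members lie between 2.63 and 5.81 log2 CPM, and 0 of 75 are past the threshold, against 11.0% of all genes.

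Neither subunit held a call. The median log2 fold change was 0.05 for the large and 0.05 for the small subunit, positive for 36 of 46 and 21 of 29 genes. The summed level of large-subunit genes was 1517, 1523 and 1566 CPM in vehicle replicates 1, 2 and 3, and 1610, 1537 and 1616 CPM in the MS275 replicates. For the small subunit the sums were 821, 816 and 834 CPM under vehicle against 868, 814 and 888 CPM under MS275. In each subunit MS275 replicates 1 and 3 were above every vehicle library, whereas replicate 2 lay within the vehicle range for the large subunit and just under it for the small. The ratio of the large to the small sum was 1.86 ± 0.01 in vehicle and 1.86 ± 0.03 with MS275 (SD, n = 3), and its ranges overlapped. Split by origin, the 29 large-subunit genes with a bacterial counterpart had a median of 0.06 and the 17 without one 0.04. In the small subunit the 16 with a counterpart had a median of 0.05 and the 10 without one 0.10. Of the 3 other Mrps genes, Mrps18a and Mrps30 encode proteins that sit in the large subunit and Mrps36 one now placed in a metabolic enzyme complex; counting the first 2 with the large subunit and leaving out Mrps36 gave medians of 0.05 and 0.06.

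**Figure D3:**
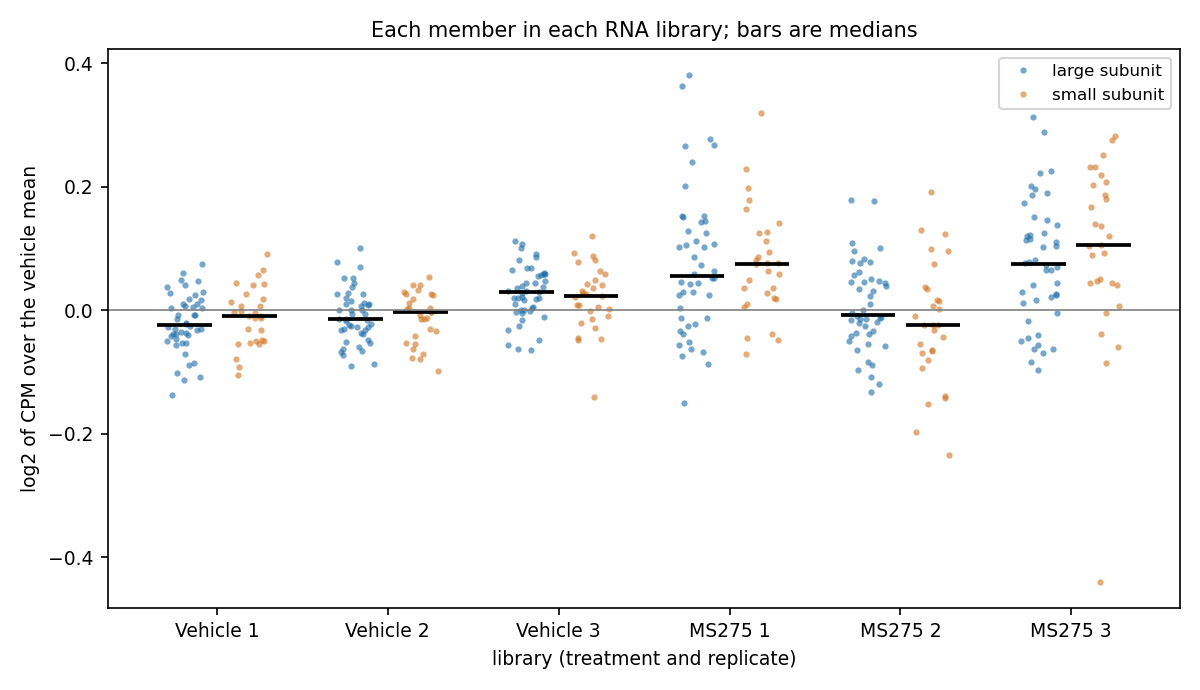
Log2 of each member's CPM over its vehicle mean (vertical axis) in each of the 6 RNA libraries, large subunit in blue and small in orange, with black bars at the medians. Of the 75 members, 28, 33 and 56 lie above their vehicle mean in vehicle replicates 1 to 3 and 58, 34 and 59 in MS275 replicates 1 to 3.

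The upward lean of the MS275 group came from 2 of its 3 libraries, and its size depended on how the libraries were scaled. In CPM the members' summed level was 3.62% higher with MS275. As a plain share of assigned reads it was 1.01% higher. That share was 0.237%, 0.236% and 0.243% in vehicle replicates 1 to 3 against 0.248%, 0.228% and 0.247% in MS275 replicates 1 to 3. The median member stood 0.06 and 0.09 above its vehicle mean on the log2 scale in MS275 replicates 1 and 3, and at -0.01 in replicate 2. Vehicle replicate 3 also leaned upward, by 0.03. The median of all genes was within 0.01 of 0 in each library, where the scaling of the libraries largely sets it. Without MS275 replicate 2, edgeR called 5 members higher (Mrpl32, Mrpl14, Mrps9, Mrps18a and Mrps34) and 0 lower, and the median member was at 0.09. Without MS275 replicate 1 it called 1, Mrpl38, and without any other single library 0. MS275 replicate 1 also carried the most RNA of a skeletal muscle list, whose sum was 7.16 to 61.5 CPM under vehicle against 721, 91.8 and 104 CPM under MS275, and 9 of its 10 genes rose. Its neutrophil markers summed to 278 CPM, against 45.4 to 82.8 CPM in the other libraries, with 0 of 9 past the threshold. The erythroid sum was also highest there, at 142 CPM against 31.5 to 63.8 CPM, with 0 of 3 past it, and so was the adipocyte sum, at 16.2 CPM against 3.94 to 8.08 CPM, with 1 of 5 higher. None of these markers was at 0 in any library. With the summed muscle level as a covariate, 45 members were above 0 and 30 below, with a median of 0.01 and 0 called, and all calls fell to 25; that covariate correlated with treatment at 0.784 and left 3 residual degrees of freedom. The 13 neuronal markers summed to 23396 to 24357 CPM under vehicle against 24655 to 27106 CPM under MS275, with 2 past the threshold (Elavl4 and Calca, both higher). Of these 13, 11 had log2 fold changes above 0, and 10 were higher without overlap (76.9%, against 15.9% of all genes). Among endothelial markers 4 of 7 rose. All 6 Schwann cell markers and 4 of 6 macrophage markers had log2 fold changes above 0, with 0 of either list past the threshold. Of 6 satellite glial markers Glul and Slc1a3 rose and Fabp7 fell. The part of these cell types in the members' values was not tested.

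Among large-subunit genes with a bacterial counterpart, Mrpl32 and Mrpl14 had the highest fold changes. Mrpl32 encodes a protein that the inner-membrane m-AAA protease must cut before it joins the ribosome. It stood at 16.2, 15.8 and 17.8 CPM under vehicle against 21.6, 17.7 and 19.4 CPM under MS275. The lowest MS275 library lay just under the highest vehicle library, so the groups overlapped. The fold change was 1.18 (95% interval 1.03 to 1.35; log2 0.24, SE 0.09) with an adjusted p of 0.10 by edgeR. Mrpl14 encodes a protein at the face that meets the small subunit and a docking place for an assembly factor. It was at 17.6, 18.3 and 18.8 CPM under vehicle against 21.9, 18.9 and 22.6 CPM under MS275, without overlap but with replicate 2 only just above the highest vehicle library. Its fold change was 1.16 (interval 1.02 to 1.31), adjusted p 0.12 by edgeR, and it overlaps Tmem63b in the annotation, so reads shared between them may be uncertain.

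The proteins of the stalk and its base, Mrpl12, Mrpl10 and Mrpl11, recruit translation factors, and Mrpl12 is also known to bind the mitochondrial RNA polymerase. Mrpl12 was at 53.7, 51.3 and 54.2 CPM under vehicle against 53.2, 50.1 and 55.5 CPM under MS275. The MS275 range enclosed the vehicle range, and the fold change was 1.00 (interval 0.92 to 1.08). Mrpl10 was at 53.7 ± 1.09 CPM under vehicle against 54.4 ± 2.38 CPM under MS275 (SD, n = 3), a fold change of 1.01 (interval 0.94 to 1.09). For Mrpl11 the vehicle libraries held 36.0, 35.4 and 36.5 CPM and the MS275 libraries 39.9, 38.0 and 38.8 CPM. These did not overlap, and the fold change of 1.08 (interval 1.01 to 1.16) had an adjusted p of 0.15 by edgeR.

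Mrpl38 and Mrpl48, which have no bacterial counterpart, both encode proteins of the central protuberance. Mrpl38 was at 32.5, 34.0 and 34.8 CPM under vehicle against 35.9, 38.2 and 41.2 CPM under MS275, and every MS275 library was above every vehicle library. Its fold change was 1.14 (interval 1.03 to 1.25), adjusted p 0.08 by edgeR. Mrpl48 was at 47.1, 45.8 and 47.5 CPM under vehicle against 45.0, 43.1 and 45.2 CPM under MS275. It was lower in each MS275 library, by little (fold change 0.95, interval 0.89 to 1.02, adjusted p 0.30 by edgeR), and it overlaps Rab6a and Cox20b.

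At the lower end, Mrpl27, near the peptidyl transferase centre, was at 42.9, 38.9 and 42.5 CPM under vehicle against 39.4, 37.8 and 39.7 CPM under MS275. These values overlapped, with the lowest large-subunit fold change, 0.94 (interval 0.87 to 1.02), in a gene that overlaps Eme1. Mrpl23, at the mouth of the exit tunnel, held 6.56, 6.13 and 6.18 CPM under vehicle against 6.12, 6.04 and 5.88 CPM under MS275. Its groups did not overlap, but the gap between them was under 0.01 CPM and the fold change was 0.96 (interval 0.83 to 1.10). A pseudogene row, Mrpl23-ps1, held 81 reads in all, so reads shared with such copies are uncertain. Mrpl48-ps held 96 reads, Mrps36-ps1 60 and Mrps36-ps2 8, all 3 below the 203 reads of the lowest member library.

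In the small subunit Mrps33, a protein without a bacterial counterpart, had the highest fold change, with little spread between libraries. It was at 16.4, 16.5 and 16.6 CPM under vehicle against 19.3, 18.8 and 19.1 CPM under MS275. The gap between the groups was several times the spread within either, the fold change was 1.16 (interval 1.05 to 1.27; log2 0.21, SE 0.06), and the adjusted p by edgeR was 0.0516. With DESeq2's size factors in edgeR it passed. Mrps34, another such protein and a gene mutated in human Leigh syndrome, was at 38.6, 40.2 and 39.6 CPM under vehicle against 43.6, 42.3 and 46.4 CPM under MS275. It did not overlap either, with a fold change of 1.12 (interval 1.03 to 1.21) and an adjusted p of 0.08 by edgeR. Mrps25, also without a bacterial counterpart, gave 42.4 ± 0.41 CPM under vehicle against 40.4 ± 3.27 CPM under MS275 (SD, n = 3), a fold change of 0.95 (interval 0.87 to 1.05).

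The 3 genes of the Mrps18 family encode proteins related to 1 bacterial protein. They take different places in the ribosome, and only Mrps18c was counted among the genes with a bacterial counterpart. Mrps18a, whose product is in the large subunit, was at 47.3, 45.1 and 50.4 CPM under vehicle against 54.6, 48.8 and 54.2 CPM under MS275. Replicate 2 lay within the vehicle range, and the fold change was 1.10 (interval 1.01 to 1.21), adjusted p 0.15 by edgeR. Mrps18b was at 17.2 ± 1.05 CPM in vehicle and 18.5 ± 1.03 CPM with MS275 (SD, n = 3), and Mrps18c had the same direction (fold change 1.10, interval 0.95 to 1.27). All 3 estimates were above 1, and only the interval of Mrps18a left out 1. Mrps30, also found in the large subunit, was at 27.3 ± 0.55 CPM under vehicle against 27.9 ± 0.49 CPM under MS275 (SD, n = 3), a fold change of 1.02 (interval 0.94 to 1.11).

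Mrps12 and Mrps7, conserved proteins of the decoding centre and of the head of the small subunit, were level. Mrps12 was at 37.4, 34.9 and 36.4 CPM under vehicle against 36.7, 34.5 and 37.4 CPM under MS275, a fold change of 1.00 (interval 0.92 to 1.09). Mrps7 was at 43.7, 42.5 and 42.5 CPM under vehicle against 40.8, 43.9 and 44.1 CPM under MS275, also 1.00 (interval 0.93 to 1.08). Mrps28, the counterpart of bacterial protein S1, had the lowest fold change of all members and the widest interval. It was at 9.54, 9.34 and 10.7 CPM under vehicle against 10.5, 8.39 and 7.27 CPM under MS275, so replicate 1 was near the top of the vehicle range and the others below it. The fold change was 0.89 (interval 0.73 to 1.09), adjusted p 0.43 by edgeR, and the gene overlaps 3 other annotated genes. Mrps2, a conserved protein of the small subunit, was at 25.1 ± 1.07 and 24.2 ± 0.39 CPM (SD, n = 3), 0.96-fold (interval 0.88 to 1.05).

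Over all members, every MS275 library was above every vehicle library for 14 genes and below for 2 (Mrpl23 and Mrpl48), and the ranges overlapped for 59. The shares of all genes without overlap were 15.9% higher and 17.9% lower, and of genes in the members' range of level 13.4% and 25.7%. The members higher without overlap, 9 large and 5 small, made up 18.7%, a share near that of all genes, and those lower 2.67%, a share below it. Of the 8 members with an unadjusted p under 0.05, Mrpl32 and Mrps18a overlapped and Mrpl14, Mrpl38, Mrpl24, Mrpl11, Mrps33 and Mrps34 did not. Mrpl24, with a bacterial counterpart near the exit tunnel, had a fold change of 1.14 (interval 1.03 to 1.25). Among the genes described above, Mrpl24, Mrps2, Mrps7, Mrps18a, Mrps18b and Mrps25 also overlap another annotated gene.

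In the rest of the mitochondrial translation system 3 genes fell and 0 rose by edgeR with all 6 libraries, against 5.89% of all genes that fell. The counts of each list follow. Subunit genes under other names (Dap3, Ptcd3, Chchd1, Aurkaip1, Gadd45gip1, Ict1 and Mrp63) numbered 7, and by edgeR 0 passed, with 2 at an unadjusted p under 0.05, Aurkaip1 and Chchd1. Aurkaip1, a small-subunit protein, was at 67.4 ± 2.07 CPM under vehicle against 74.8 ± 2.82 CPM under MS275 (SD, n = 3; log2 fold change 0.15, adjusted p 0.06 by edgeR). DESeq2 called 1 of these 7 genes higher, Aurkaip1, as did edgeR with the replicate number as a block or without MS275 replicate 2. Among 28 genes of ribosome assembly 1 fell, Nsun4, an RNA methyltransferase that acts on mitochondrial ribosomal RNA, from 23.9 ± 0.66 to 20.0 ± 0.75 CPM (SD, n = 3; log2 fold change -0.26, adjusted p 0.029 by edgeR). Of 15 translation factors 1 fell, the release factor gene Mtrf1l (log2 fold change -0.35, adjusted p 0.046 by edgeR), and of 19 mitochondrial tRNA synthetases 1 fell, Wars2 (log2 fold change -0.41, adjusted p 0.042 by edgeR). These last 3 calls were each lost when any 1 vehicle library was left out and with the muscle covariate. Mtrf1l also lost its call by DESeq2, limma voom, the replicate block and no filter, and without MS275 replicate 2 or 3, and Wars2 without MS275 replicate 1 or 2. With the muscle covariate the log2 fold changes were -0.18 for Nsun4, -0.50 for Mtrf1l and -0.19 for Wars2. Other genes of these lists gained a call when 1 library was left out. Without MS275 replicate 1, edgeR called Tufm and Lars2 higher and Mrm1 lower. Without MS275 replicate 2 it called Mars2 and Qrsl1, 1 of them higher and 1 lower. Of 8 genes for transcription of mitochondrial DNA, 0 passed by edgeR, DESeq2 or limma voom, and 1, the polymerase gene Polg, had an unadjusted p under 0.05 (log2 fold change -0.16).

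Of the messages that mitochondrial ribosomes translate, 7 of 13 were tested, and 0 passed by edgeR, with 1, mt-Nd1, at an unadjusted p under 0.05, which DESeq2 called higher. Their sum was 17986, 22135 and 21088 CPM under vehicle against 24423, 23030 and 21117 CPM under MS275. Vehicle replicate 1 was the lowest and MS275 replicate 1 the highest, and the groups overlapped. For mt-Co1, a core subunit of cytochrome oxidase, the log2 fold change was 0.15 (SE 0.07; adjusted p 0.21 by edgeR). The libraries were selected for poly(A), which mitochondrial messages carry as short tails if at all. The messages not tested were in the count files but did not pass the filter for low counts.

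Several nuclear regulators of mitochondrial genes were lower with MS275. Of 10 listed, 4 fell and 0 rose by edgeR, against 5.89% of all genes that fell. Of the 6953 genes within the members' range of level 693 fell, though the listed regulators run beyond that range at both ends. The list's median log2 fold change was -0.22, against 0.00 for all genes and -0.03 for genes in that range. Pprc1, a coactivator of the PGC-1 family, was at 24.0, 27.2 and 23.4 CPM under vehicle against 13.5, 18.0 and 14.9 CPM under MS275. Every MS275 library was below every vehicle library, with a log2 fold change of -0.69 (SE 0.11) and an adjusted p of 0.0076 by edgeR. Yy1, a zinc-finger factor, was at 40.5, 42.3 and 40.4 CPM under vehicle against 32.4, 34.9 and 32.7 CPM under MS275. It fell by 0.30 on the log2 scale (adjusted p 0.0095 by edgeR), again without overlap. Gabpa, the DNA-binding part of GABP, was at 29.4, 28.6 and 28.7 CPM under vehicle against 24.1, 23.9 and 21.4 CPM under MS275 (log2 fold change -0.32, adjusted p 0.016 by edgeR). Gabpb2, which encodes a partner of Gabpa, went from 12.8 ± 0.29 to 9.32 ± 1.10 CPM (SD, n = 3; log2 fold change -0.45, adjusted p 0.017 by edgeR). Both were lower in every MS275 library than in any vehicle library.

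The other regulators did not pass. Nrf1 was at 13.7, 13.4 and 14.2 CPM under vehicle against 10.6, 11.6 and 12.2 CPM under MS275, without overlap, and missed the threshold at an adjusted p of 0.056 by edgeR (log2 fold change -0.26). Gabpb1 had a log2 fold change of -0.18 (adjusted p 0.15 by edgeR). The coactivator genes Ppargc1a and Ppargc1b were at 0.09 and 0.14, Esrra at 0.11 and Myc at 0.00 on the same scale, with adjusted p-values by edgeR of 0.37, 0.64, 0.25 and 0.98. Left out 1 at a time, vehicle replicates 1, 2 and 3 left 2, 1 and 2 of the 4 calls, and only Pprc1 passed in all 3. With the muscle covariate the adjusted p-values by edgeR were 0.21 for Pprc1, 0.17 for Gabpa, 0.16 for Gabpb2 and 0.26 for Yy1. The log2 fold changes in that fit were -0.40 for Pprc1, -0.36 for Gabpa, -0.55 for Gabpb2 and -0.23 for Yy1, so that of Pprc1 was smaller by over 1.5 times and those of Gabpa and Gabpb2 were not smaller. Whether these changes bear on the ribosomal genes was not tested.

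In the open-chromatin data, nearly all of the members had an open region at their start. ATAC-seq maps DNA that a transposase can enter, and the authors' lists gave 177906 merged regions in vehicle and 161788 with MS275. A region within 1000 bp of the start was in both lists for 72 of 75 members (96.0%), against 85.7% of all genes matched. For the 66 members with a RefSeq start it was 64 (97.0%), against 88.4%, and for the other 9 either end of the gene was used. All 46 large-subunit genes and 26 of 29 small-subunit genes had one in both lists. The weakest was that of Mrpl4, with a fold of 1.57 in vehicle. Its −log10 q was 2.05 in vehicle and 0.83 with MS275. Counting only regions with a −log10 q of at least 5, 45 large-subunit genes had one in both lists and 1 in neither. Mrps10 and Mrps34 had a region in the vehicle list only, with folds of 2.28 and 1.97, at the low end for members, and Mrps23 in neither. The RefSeq start used for Mrps23 (chr11:88204388) lies inside the annotated gene (chr11:88194106-88211507), and the ends of that gene were not searched. Mrps34 and Mrpl4 are among the 9 without a RefSeq start, so the region of each lay near a gene end that may not be the start. With a window of 2500 bp all 9 had a region in both lists. The MS275 list is the shorter of the pair, and each list pools 3 mice, so differences between the lists could not be tested.

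Fold enrichment at each region's strongest point, as the authors' caller gave it, had a median of 3.59 over members in vehicle and 3.5 with MS275, against 3.64 and 3.71 over all genes with a start and a region there. Members with a RefSeq start ran from 2.05 to 10.5 in the vehicle list. Mrpl32 was among the strongest, at 9.71 in vehicle and 10.4 with MS275. Mrps33 had 6.27 and 8.57 and Mrps12 4.37 and 3.69, whereas Mrpl12 had 2.84 and 2.76. The lists differ in length and their depth is unknown here, so a fold in one is not compared with a fold in the other. Summits lay within 250 bp of the start for 59 of 65 members (90.8%) in vehicle and 60 of 64 (93.8%) with MS275, against 80.5% and 80.4% of all such genes. The median summit lay at -43 bp from the start in vehicle and at -47.5 bp with MS275, where a negative distance is before the start.

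**Figure D4:**
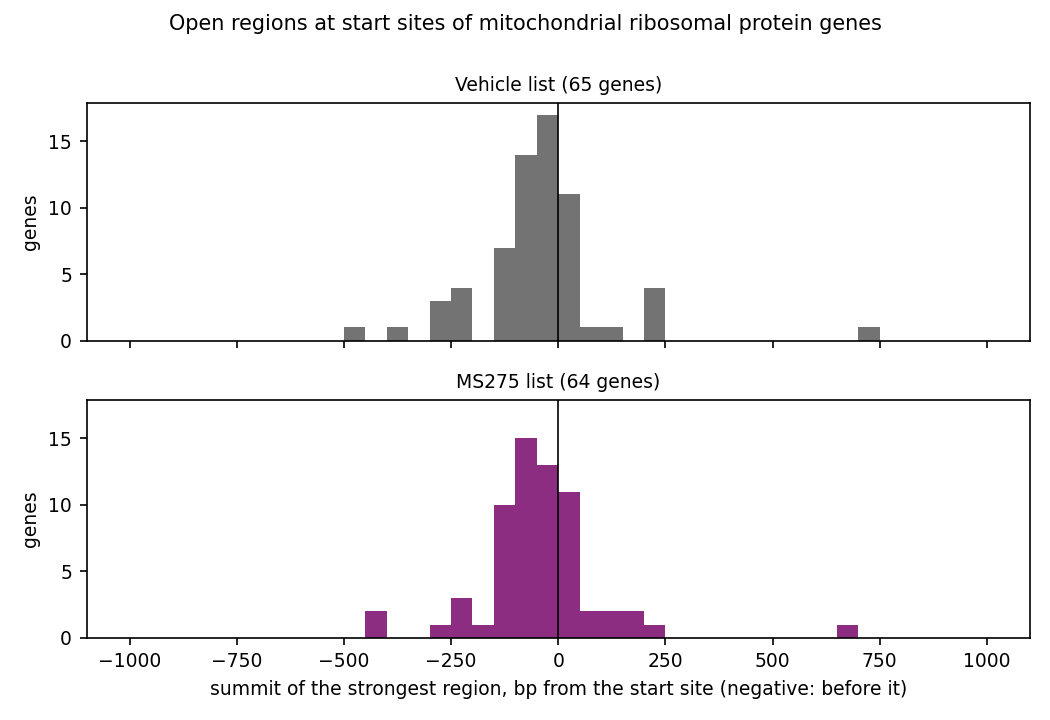
Number of members by distance in bp from the RefSeq start to the summit of the strongest region there, vehicle list above (65 genes) and MS275 list below (64 genes). Most summits lie just before the start, with 59 and 60 of them within 250 bp.

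Motifs of the nuclear factors, which the selection by symbol did not use, were present in part of the members' promoters. In windows of 250 bases before to 50 after the start, from RefSeq, the GABP (ETS) motif CCGGAAG (reverse CTTCCGG) was in 21 of 66 members (31.8%), against 16.3% of all genes tested with such a window and 8.9% of all 32851 windows. The YY1 core AAGATGG (reverse CCATCTT) was in 13 (19.7%), against 6.7% and 6.3%. The NRF1 core was in 8 (12.1%), against 6.1% and 3.6%: Mrpl9, Mrpl10, Mrpl17, Mrpl22, Mrpl32, Mrpl33, Mrpl39 and Mrps18b. By contrast the GC box was in 33 of 66, against 63.0% and 35.7%, and the TATA box TATAAA (reverse TTTATA) in 4 (6.1%), against 7.4% and 13.6%. At least 1 of the NRF1, GABP and YY1 motifs was in 33 of 66, against 26.1% and 17.3%. Members start close together in 1 case (Mrpl46 and Mrps11), and no test was made of these shares.

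**Figure D5:**
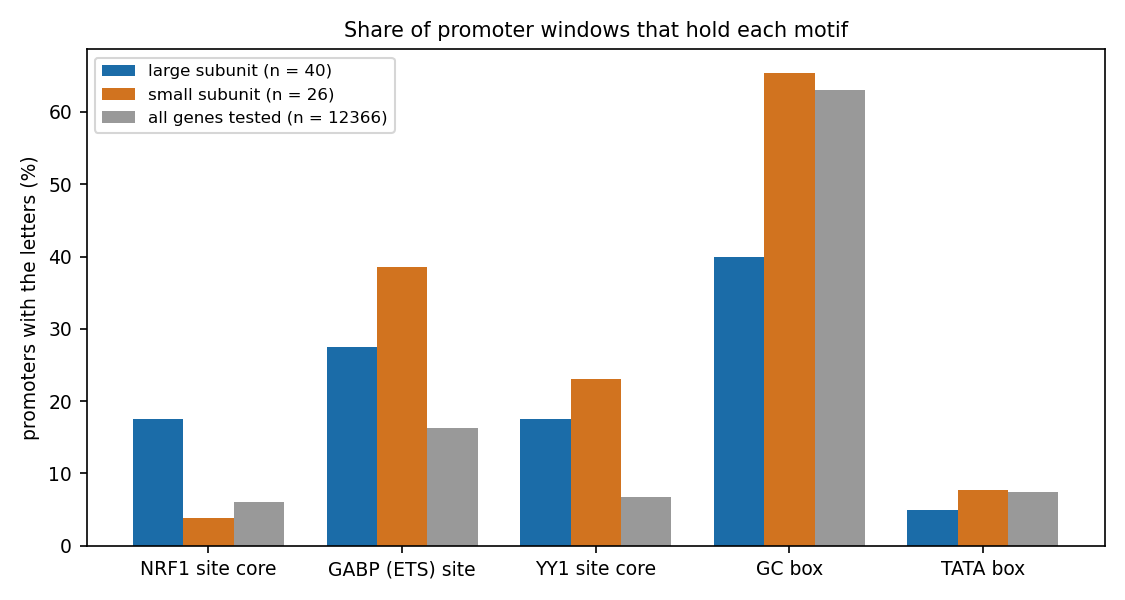
Percent of promoter windows (250 bases before to 50 after the start) that hold each motif on either strand, for 40 large-subunit genes, 26 small-subunit genes and 12366 genes tested. The GABP motif is in 27.5% and 38.5% of the subunits' windows and 16.3% of all, and the NRF1 core in 17.5%, 3.8% and 6.1%.

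Fold changes of members with and without each motif were described and not tested. The median log2 fold change was 0.09 for the 8 members with the NRF1 core and 0.05 for the 58 without it. For GABP it was 0.08 (21 members) and 0.04 (45 members), and for YY1 0.07 (13 members) and 0.05 (53 members). Over all genes tested, 8.7% of those with the GABP motif passed the threshold against 12.1% without it, 10.7% against 11.6% for the NRF1 core, and 13.5% against 11.4% for the YY1 core. In the stretches printed above, Mrpl32 holds the NRF1 core at 3 places and Mrps18b at 1 place on both strands. Every printed stretch, those of Mrps33, Mrps12 and Mrpl46 included, holds at least 1 GC box. The windows of Mrps33, Mrps18b and Mrps12 also hold the GABP motif and those of Mrpl32 and Mrps12 the YY1 core, in the part that is not printed.

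Many of these genes start close to a neighbour on the opposite strand, and whether a promoter serves both was not tested. A protein-coding gene on the opposite strand started within 1000 bp before the start of 23 of 66 members (34.8%), against 1369 of 11839 protein-coding genes tested (11.6%); this count was chosen after the data were seen. Mrpl46 and Mrps11, a large- and a small-subunit gene, start 42 bp apart. Their log2 fold changes were 0.05 and 0.12, and neither passed. Mrps12 starts 147 bp from Sars2, the mitochondrial seryl-tRNA synthetase. Mrpl43 starts 116 bp from Peo1, the helicase that unwinds mitochondrial DNA, and Mrpl47 308 bp from Ndufb5, a complex I subunit. Mrpl32 starts 205 bp from Psma2, which had a log2 fold change of 0.15 (adjusted p 0.058 by edgeR) beside 0.24 for Mrpl32. Of the 23 neighbours tested, which include Mrpl46 and Mrps11 themselves, 1 rose, against 5.10% of all genes. This was Ppp1r10, a phosphatase regulator 756 bp from Mrps18b, from 37.7 ± 1.30 to 42.8 ± 0.89 CPM (SD, n = 3; log2 fold change 0.18, adjusted p 0.042 by edgeR), and 0 fell.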

How the data were processed

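The members, gene lists, motifs and named genes were chosen with earlier results of these data known. Each deposited RNA file holds whole-number read counts per gene symbol, per the file's values; the submitters' processing notes name the mm10 build and, without saying what each did, FastQC 0.10.1, STAR 2.7.0, R 3.5.0, limma 3.38.3 and edgeR 3.24.3. The labels' protocols give RNA integrity above 8, poly(A) selection and strand-marked libraries; read counter, strand setting and peak caller: not given in the sources used here. The 5 rows that name no gene (18.9% to 20.6% of reads) were left out, leaving 34992533 to 60370523 assigned reads per library. Each deposited ATAC list gives for every peak, judging by its layout, the authors' fold enrichment (a ratio), −log10 q-value, score and the offset of the summit; ATAC depth is unknown here.

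Counts were fitted with edgeR 4.0.16 (R 4.3.3; TMM, filterByExpr, quasi-likelihood test, treatment only, 3 libraries per group, 2-sided, Benjamini-Hochberg over 16819 genes, adjusted p under 0.05). The fit was run on simulated data; it missed the recovery first required there, which included genes of low counts, and passed a requirement set afterwards for genes at the members' level. Counts were scaled to TMM library sizes to give CPM. The standard error is the log2 fold change over the square root of F, and intervals are 95%. Named members are the 3 highest and 3 lowest fold changes per subunit and 8 well-known genes (Mrpl58 is listed as Ict1); of the other lists, those past the threshold. No coding lengths were at hand, so levels are not compared between genes and the part of the rule that needs them was not applied. The genes outside this rule, the promoters shown, the head-to-head neighbours, the genes of like level and the counts within 1.2-fold and 1.5-fold were chosen after the values were seen. Mrpl55 was moved from the genes with a bacterial counterpart to those without one, also after values were seen, since its protein has none. Gene positions, starts and promoters are from RefSeq (GRCm38.p6), which matched 75 members and 95.0% of genes tested, 1049 of them by a synonym; 23 members overlap another annotated gene, and reads in such overlaps are uncertain. ATAC entries that overlap were merged, and 1 bp of overlap counted. Alternatives were DESeq2 1.42.0, limma voom (limma 3.58.1), other size factors, no filter, a minimum mean of 100 reads, the replicate number as a block, a muscle covariate, each library left out, subunit by place in the ribosome, and for ATAC windows of 500 and 2500 bp, a −log10 q of at least 5 and 50% overlap. Replicate libraries differed beyond sampling noise in both groups (chi-square per degree of freedom 7.23 to 54.0).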

Additional observations from a re-analysis of the deposited data

How the results depend on the processing

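The number of members that fell was 0 under every alternative run. The number that rose was 0 except for 1 (Mrps33) with DESeq2's size factors, 1 (Mrps33) with limma voom, and 0 to 5 when 1 library was left out. Over all genes, calls numbered 1849, against 25 with the muscle covariate, 2088 with the replicate number as a block, and 261 to 2763 when 1 library was left out, lowest without vehicle replicate 2 and highest without MS275 replicate 2 (375 without vehicle replicate 1, 728 without vehicle replicate 3, 882 without MS275 replicate 3). With the replicate block 0 members were called and the median log2 fold changes were 0.047 (large) and 0.052 (small). Libraries with the same number correlated at 0.0192, 0.111 and -0.0611, and not every library correlated best with its own number. With 3 libraries per group, these values cannot tell whether libraries of the same number share more than the number. The subunit medians stayed above 0 under all alternatives run: when 1 library was left out, 0.038 to 0.080 for the large and 0.030 to 0.094 for the small subunit, and with the muscle covariate 0.016 and 0.0066.

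Of 228 values for 19 named members, 206 kept their direction and side of the threshold, 7 moved past it (Mrps33, Mrpl38, Mrpl32, Mrpl14, Mrps34 and Mrps18a), and 15 changed sign, each at most 0.04 in size. The changes of sign were in Mrpl12 (0.00047 with DESeq2's size factors, 0.00032 by DESeq2, -0.034 to 0.040 when 1 library was left out), Mrps12 (0.0032, 0.0031 and -0.029 to 0.037), Mrps7 (-0.012 to 0.041) and Mrpl10 (-0.0083 to 0.052); the cause was not tested. The count of members whose interval lay within 1.2-fold was 42 to 59 when 1 library was left out and 37 with the muscle covariate, and within 1.5-fold it was 75 and 74. Members with an open region in both lists numbered 71 to 73 under the other windows, overlap and q. Members were chosen by a read minimum, which left out Mrpl53 with 2 reads, and each had at least 203 reads in every library. RNA of whole ganglia shows neither the protein nor which cells it came from, and the pooled ATAC lists allow no test between treatments.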

Other observations

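Lars2, the mitochondrial leucyl-tRNA synthetase, was at 168, 155 and 244 CPM in vehicle and at 139, 708 and 229 CPM with MS275, so that 1 library, MS275 replicate 2, stood far above the other 5. The log2 fold change was 0.93 (SE 0.48), with an adjusted p of 0.24 by edgeR. Without MS275 replicate 1, edgeR called Lars2 higher. MS275 replicate 2 also had the lowest members' sum of the MS275 group, 2351 CPM, against 2477 and 2504. The mitochondrial ribosomal RNA genes mt-Rnr1 and mt-Rnr2 were highest in MS275 replicate 1, at 329 and 916 CPM, against 212 to 243 and 584 to 679 CPM in the other 5 libraries.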
